A study of Mus musculus with 14 samples.

Results

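H3K27me3 sites in intergenic DNA far from genes were analysed in iMEF, immortalised fibroblasts of mouse embryos, whose growth relies on FKBP-HA2-ASH2L. This is human ASH2L joined to a tag through which it can be degraded. A site was counted here when it lay on an autosome, was at least 1000 bp and under 5000 bp wide, and had its centre outside every annotated gene and more than 50000 bp from any transcript start. These limits selected 1783 of the 153983 listed sites, which is 6.01% of the 29646 autosomal sites in this range of widths (95% Wilson interval 5.75 to 6.29%). The width and position of the called sites thus chose the members, and both are given below as a description without a test. They are called far intergenic sites in what follows.

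The first H3K27me3 ChIP-seq experiment of the study comprised 12 libraries in 6 groups of 2 replicates. These were control iMEF and iMEF exposed to dTAG-13 for 30 min, 2 h, 4 h, 8 h or 16 h, and 2 further libraries held input chromatin, from untreated cells and after 16 h of dTAG-13. dTAG-13 links the tag to an E3 ubiquitin ligase and so marks the fusion for degradation, and the experiment asked how the mark responds to rapid loss of ASH2L. All groups, controls included, carry floxed Ash2l alleles with an exon deleted through Cre-ER and survive on the lentiviral FKBP12F36V-tagged human ASH2L. The cells were grown from single clones obtained by limiting dilution, so the list describes 1 cloned line (NG3 cells). The deposited list used here combines the sites of all samples and carries no value for any library. From it, treated cells could not be compared with controls, and the read depth behind a site is not given. The study also names a separate list of sites that changed at each time point against control, which was not used here. Intervals for shares and medians cover the counting of sites only, and neighbouring sites are not independent.

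H3K27me3 is set by Polycomb repressive complex 2 (PRC2), whose catalytic subunits are EZH1 and EZH2, and it marks genes that are kept silent, among them many regulators of development. In mammals PRC2 is recruited to unmethylated CpG-rich DNA, and the mark can spread from there into broad domains that reach over flanking intergenic sequence. Trithorax complexes, of which ASH2L is a subunit, methylate H3K4 and act in opposition to Polycomb at promoters. Intergenic H3K27me3 also occurs as a low blanket in regions without transcription.

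Far intergenic sites ranged from short CpG-rich stretches to DNA of ordinary composition, and 4 windows of 300 bases are printed to show this range. They are given on the plus strand of GRCm38, 5′ to 3′, with each CpG, the dinucleotide to which PRC2 recruitment is tied, in capitals. The first 2 are the most CpG-rich windows of 2 of the sites with the highest CpG density. The next is the centre of the site of median GC content, and the last is the centre of 1 of the 3 most isolated sites.
chr8:48220426-48220725, nearest protein-coding gene Tenm3: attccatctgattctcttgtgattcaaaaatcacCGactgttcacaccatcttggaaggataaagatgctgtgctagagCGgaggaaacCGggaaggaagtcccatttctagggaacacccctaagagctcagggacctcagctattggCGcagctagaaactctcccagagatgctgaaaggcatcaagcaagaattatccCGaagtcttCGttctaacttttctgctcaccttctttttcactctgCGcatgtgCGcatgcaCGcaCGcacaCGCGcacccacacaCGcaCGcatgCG
chr2:172787658-172787957, nearest protein-coding gene Bmp7: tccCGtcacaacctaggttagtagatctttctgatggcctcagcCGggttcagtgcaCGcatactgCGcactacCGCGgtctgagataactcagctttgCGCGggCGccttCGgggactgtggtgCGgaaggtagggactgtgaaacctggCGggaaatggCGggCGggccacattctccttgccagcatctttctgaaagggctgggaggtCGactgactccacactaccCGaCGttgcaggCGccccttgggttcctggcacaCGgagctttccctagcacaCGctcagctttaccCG
chr2:146617733-146618032, site of median GC content: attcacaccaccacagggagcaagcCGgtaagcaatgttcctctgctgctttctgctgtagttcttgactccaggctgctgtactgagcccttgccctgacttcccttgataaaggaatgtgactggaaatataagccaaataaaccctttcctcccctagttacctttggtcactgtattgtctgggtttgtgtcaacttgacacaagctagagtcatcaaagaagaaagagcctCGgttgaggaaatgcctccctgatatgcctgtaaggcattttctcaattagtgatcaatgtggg
chr3:149519004-149519303, isolated site: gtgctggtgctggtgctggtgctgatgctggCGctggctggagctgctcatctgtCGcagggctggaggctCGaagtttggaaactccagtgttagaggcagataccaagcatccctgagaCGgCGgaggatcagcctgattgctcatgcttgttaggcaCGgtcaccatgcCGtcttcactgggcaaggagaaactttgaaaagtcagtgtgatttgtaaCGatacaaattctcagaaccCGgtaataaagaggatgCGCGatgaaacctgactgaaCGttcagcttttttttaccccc

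The Tenm3 window had 15 CpGs, many of them in the run of alternating CG and CA at its 3′ end. Its observed/expected CpG ratio, the number of CpGs divided by that expected from its C and G content, was 0.805. The Bmp7 window had 21 CpGs and a ratio of 0.778. The median window had 2 CpGs, and 60.3% of its bases were masked as repeats. The isolated window had 12 CpGs and a ratio of 0.602. The high values of the first 2 follow from how they were picked and are not typical, as the distribution of CpG below shows.

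Far intergenic sequence, defined by the same distance from genes, made up 371.1 Mb or 15.5% of the autosomal bases. The 1783 sites covered 3464 kb of it, at 4.81 sites per Mb. Over the 19 autosomes the median was 4.42 sites per Mb (SD 2.74). The highest density, 12.5 per Mb, was on chromosome 7, and the lowest, 1.41 and 1.43, were on chromosomes 16 and 10, a range of 8.87-fold between the extremes. The number of sites per chromosome ran from 23 on chromosome 10 to 171 on chromosome 8.

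The density of intergenic sites of these widths fell with the distance from transcript starts, on both sides of the limit of 50 kb. There were 20.9 sites per Mb within 1 kb of a start, then 18.1 up to 10 kb, 15.2 up to 25 kb and 10.7 up to 50 kb. Beyond the limit the density was 6.93 up to 100 kb, 2.80 up to 200 kb and 0.406 up to 500 kb. Far intergenic sites were therefore concentrated towards their inner limit, with a median distance of 71348 bp. Of the members, 364 (20.4%, 18.6 to 22.3%) were more than 100 kb and 17 (0.953%, 0.596 to 1.52%) more than 200 kb from any start. As distance is part of the definition, no test was made of this trend.

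**Figure D1:**
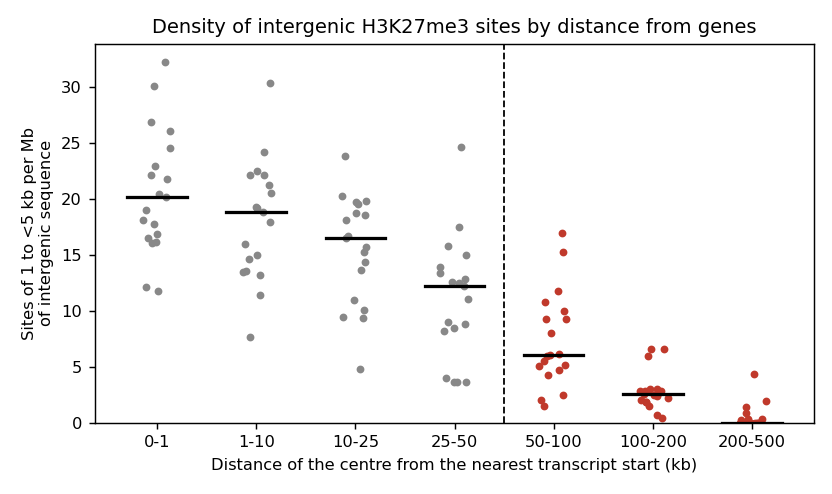
Sites of 1 to under 5 kb per Mb of intergenic sequence (y axis) by the distance of their centre from the nearest transcript start in kb (x axis). Each point is 1 of 19 autosomes and the bar is their median, which fell from 20.2 within 1 kb to 6.04 at 50 to 100 kb and 2.54 at 100 to 200 kb; red points lie beyond the limit of 50 kb (dashed line).

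The median width was 1605 bp (1555 to 1659 bp), with quartiles of 1230.5 and 2389 bp. The widest member, at chromosome 9, 69897030 to 69902017, was 4988 bp wide and had Bnip2 as its nearest protein-coding gene at 89942 bp. The next were 4919 bp wide on chromosome 7 (136056380 to 136061298, nearest gene Mki67) and 4868 bp wide on chromosome 8 (83822224 to 83827091, nearest gene Adgrl1). The narrowest member had 1000 bp, while the widest far intergenic site left out for being narrow had 999 bp and the narrowest left out for being broad had 5011 bp. The member nearest to a transcript start was 50011 bp away, and a site at exactly 50000 bp was left out. The limits were thus not at gaps in the values. Without limits on width there were 11330 far intergenic sites, of which 9395 were under 1000 bp and 152 were 5000 bp or wider.

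Far intergenic sites were rarely alone. The median gap to the nearest other listed site of any width was 376 bp (362 to 394 bp). Another site was closer than 1 kb for 83.6% (81.8 to 85.2%) of the members and closer than 5 kb for 97.1% (96.3 to 97.8%). For comparison, a neighbour within 1 kb was found for 85.6% (85.0 to 86.2%) of intergenic sites nearer to genes, 87.5% (86.9 to 88.1%) of sites inside genes and 76.9% (75.4 to 78.3%) of promoter sites. Promoter sites are those within 1000 bp of a transcript start, and the other classes have the same limits on width.

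When listed sites closer than 5 kb were joined, the members fell into 777 joined domains, 434 of which were at least 10 kb long. Such domains held 77.0% (74.995 to 78.9%) of the members. Domains of at least 50 kb held 35.4% (33.3 to 37.7%) and those of at least 100 kb 16.0% (14.4 to 17.8%). Seen from a member, the joined domain had a median length of 30.4 kb and a median of 15 listed sites. The longest, of 430.1 kb on chromosome 5, joined 85 sites of which 11 were members with Adra2c or Lrpap1 as the nearest gene. The next, of 321.2 kb on chromosome 2, joined 120 sites with 19 members, all nearest to Mtx2, which encodes a protein of the mitochondrial outer membrane. A domain of 298.8 kb on chromosome 15 held 4 members outside the Hoxc cluster, 54284 to 69092 bp from Hoxc13, their nearest gene.

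The share of the surroundings covered by other sites, measured over 25 kb on either side of the centre, had a median of 29.5% (28.2 to 31.1%) and ranged from 0 to 94.4%. For intergenic sites nearer to genes the median was 33.5%, for sites inside genes 38.3% and for promoter sites 21.6%. In the exact two-sided sign test over 19 autosomes, with p-values adjusted over 6 comparisons (Benjamini-Hochberg), the members had less covered surroundings than sites inside genes, by a median of -8.59 percentage points over the autosomes (lower on 18 of 19, adjusted p = 0.000153). The difference from intergenic sites nearer to genes, -2.92 points, did not pass the test (lower on 14 of 19, exact test, adjusted p = 0.0636). Neither did that from promoter sites, 6.65 points (higher on 14 of 19, exact test, adjusted p = 0.0636). Both passed it under some of the other settings and missed it under others, and the values are given further on. The difference from sites inside genes was -3.48 points with surroundings of 100 kb and -15.7 points with a distance limit of 100 kb. The density of sites falls with distance from transcript starts, which is part of the definition. The test therefore cannot separate the cover of the surroundings from that distance, and no conclusion is drawn from it. Autosomes share the same libraries and cells, so the test measures how steady a difference is along the genome and not between cultures.

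Only 51 members (2.86%, 2.18 to 3.74%) had no other listed site within 5 kb. Their median width was 1460 bp (1323 to 1718 bp), and their median distance from a transcript start was 90688 bp (73853 to 100094 bp), against 70858 bp (69380 to 72425 bp) for members in domains of at least 10 kb. The median GC content was 46.8% in both sets, while the flanks had 42.0% (39.4 to 43.1%) around lone members and 44.4% (44.3 to 44.8%) in the domains. The 3 members farthest from any transcript start were all lone. They lay 325994 bp away on chromosome 2 (123599412 to 123600423, nearest gene Sema6d), 302786 bp away on chromosome 3 (42946768 to 42948433) and 268403 bp away on chromosome 15 (45693584 to 45694661). Of their bases, 19.96%, 93.5% and 50.3% were masked as repeats, compared with a median of 13.9% over all members. Calls in repeats depend on how reads that map to several places are filtered, and this was not tested.

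The most isolated member, on chromosome 18 (23310137 to 23311363), was also the member with the most CpG. It was 218981 bp from any other listed site. Its GC content was 66.0%, against 37.5% in its flanks, it had 80.7 CpGs per kb and an observed/expected CpG ratio of 0.759, and none of its bases was masked. The nearest transcript start of any annotated gene was 94081 bp away, and the nearest protein-coding gene was Dtna, which encodes a protein of the dystrophin complex, at 104385 bp. The next most isolated members were 168249 bp (chromosome 3, 149518295 to 149520012, nearest gene Adgrl2) and 163181 bp (chromosome 15, 19919551 to 19920640, nearest gene Cdh12) from another site. The former had 31.4 CpGs per kb and held a CpG-rich window, whereas the latter had 9.17 CpGs per kb and was masked to 74.6%.

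The members clustered in few gene-free stretches. A stretch was taken as the DNA between neighbouring annotated genes, and 3523 of them on the autosomes contained far intergenic sequence. Of these, 478 held at least 1 member and 184 of the 478 held exactly 1. The 116 stretches with at least 5 members held 62.8% (60.5 to 64.97%) of all members. Stretches with members had a median length of 157.6 kb, against 149.9 kb for the others, and a median GC content of 43.4% against 39.1%.

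The stretch with most members lay between Mphosph6, which encodes a protein associated with the RNA exosome, and Cdh13, which encodes the cell adhesion protein T-cadherin (chromosome 8, 117803235 to 118120953). It held 134 listed sites that covered 63.8% of its 317.7 kb, and 34 of them were members. Their widths ranged from 1047 to 4377 bp with a median of 1856.5 bp, and their GC content from 42.8 to 53.9%. Neither gene had a site at a promoter. On chromosome 11, 1 stretch between Meis1, a homeobox gene, and Spred2, an inhibitor of Ras and MAPK signalling, held 22 members (19384709 to 19626760, 36.8% covered). Meis1 but not Spred2 had a promoter site. Another 22 lay between Cox10, which acts in haem A synthesis, and F930015N05Rik (chromosome 11, 64182172 to 64435155, 32.7% covered).

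The remaining 2 of the 5 leading stretches were on chromosomes 3 and 11. That between 4930564D02Rik and Kcnd3, a voltage-gated potassium channel gene with a promoter site, held 22 members (chromosome 3, 105078807 to 105441594, 26.0% covered). That between 9530068E07Rik and Fstl4, a follistatin-like gene with a promoter site, held 19 (chromosome 11, 52487311 to 52764633, 57.3% covered). The stretches Mtx2 to Hnrnpa3, Sox2 to Atp11b and Sall1 to Tox3 also held 19 each, with 71.3%, 19.4% and 22.5% of their length covered. Stretches with the same number of members thus differed widely in how much of them was covered. The 5 leading stretches together held 119 members.

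**Figure D2:**
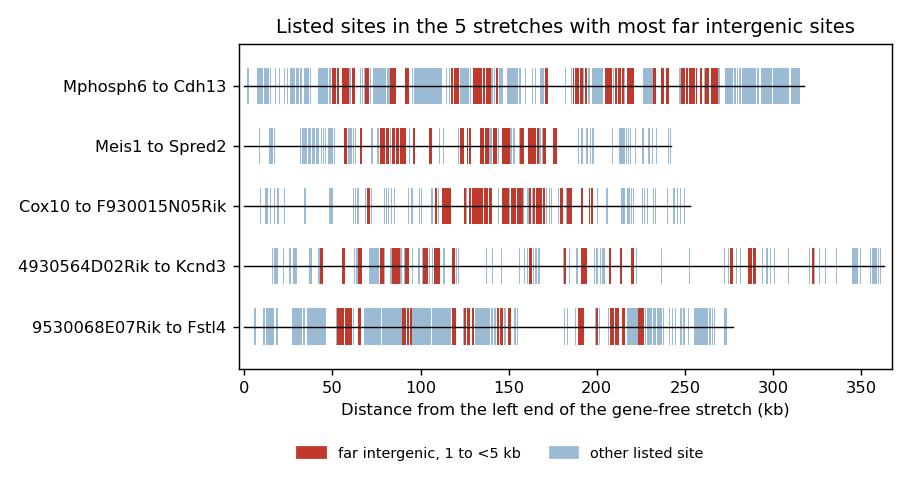
Listed H3K27me3 sites along the 5 gene-free stretches with most far intergenic sites, named by the protein-coding gene on either side. The x axis is the distance in kb from the left end of the stretch; red blocks are far intergenic sites of 1 to under 5 kb (34, 22, 22, 22 and 19 from top to bottom) and blue blocks all other listed sites, and the red sites lie among many others, with fewer sites of any kind in parts of the lower stretches.

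The sequence of the sites differed from that around them. The median GC content of the members was 46.8% (46.7 to 46.9%), and that of their flanks, taken at the same width from 5 kb beyond each end, was 44.2% (43.996 to 44.4%). GC content was above that of the flanks in 80.5% (78.6 to 82.3%) of the members. The median difference was 2.55 percentage points, and it was above 0 on 19 of 19 autosomes with a range of 1.81 to 4.38 (exact two-sided sign test, adjusted p = 3.81e-06 over 2 measures, the smallest the test can give). The observed/expected CpG ratio was 0.198 in the members and 0.177 in the flanks, with a median difference of 0.0198 (higher on 19 of 19 autosomes, exact sign test, adjusted p = 3.81e-06), and it was higher than in the flanks for 59.4% (57.1 to 61.7%) of them.

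Flanks often contained other listed sites. When only flanks free of any site were used, 351 members remained and the difference in GC content was 4.24 points (19 of 19 autosomes). Against windows of 2 kb without any site in the same stretch, available for 1380 members, it was 3.89 points (46.7% against 42.7%, 19 of 19 autosomes). The median GC content of all far intergenic windows without a site was 38.6%. The difference from the flanks was thus smaller than that from DNA without a listed site. Chosen after the data had been seen, these comparisons are additions to the one with flanks.

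The masked repeat share moved with the sites. It was 13.9% (13.3 to 14.5%) in the members and 23.1% in their flanks, and was lower than in the flanks by a median of -7.96 points, on 19 of 19 autosomes (exact sign test, p = 3.81e-06). In windows without a site in the same stretches it was 26.7%. With masked bases left out, the members were still richer in GC than their flanks, by 2.15 points on 19 of 19 autosomes. What part the filtering of reads in repeats has in where sites were called was not tested.

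**Figure D3:**
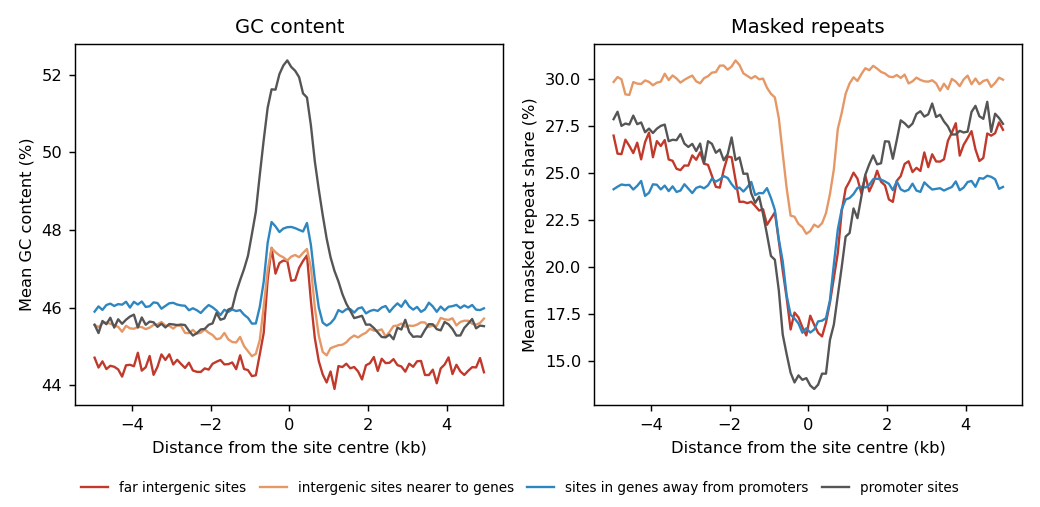
Mean GC content (left, %) and mean share of bases masked as repeats (right, %) in bins of 100 bp against the distance from the site centre in kb, for far intergenic sites and the other 3 classes of the same widths. Around far intergenic sites mean GC content rose from 44.5%, averaged over the outermost 500 bp on both sides, to 47.1% within 500 bp of the centre, and the masked share fell from 26.8% to 16.9%; promoter sites had 51.9% GC within 500 bp of the centre.

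**Figure D4:**
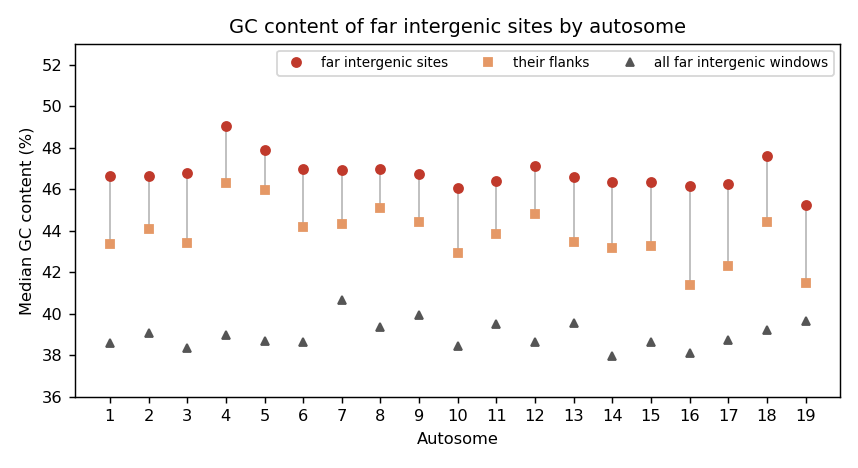
Median GC content in % (y axis, starting at 36) of far intergenic sites (circles), of their flanks (squares) and of all far intergenic windows of 2 kb (triangles) on each autosome (x axis), with a line joining sites and flanks. On each of the 19 autosomes the sites lie above their flanks, and the flanks above the windows.

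The share of far intergenic DNA under a site rose with GC content. Of 183723 windows of 2 kb, 93.7% contained no listed site of any width and 3214 were covered by sites over at least 50% of their length. Among windows under 34% GC, 0 of 19615 were covered to this extent (which allows a share of up to 0.0153%, or 3 counts). The share was 0.801% (0.705 to 0.910%) at 40 to 42% GC, 6.43% (6.01 to 6.89%) at 44 to 46% and 17.1% (15.6 to 18.7%) at 50% or more. The autosomes ranged from 0 to 39.5% in the last class, so the level at a given GC content differed between chromosomes. The median masked share was 36.2% at 40 to 42% GC, 24.9% under 34% GC and 19.6% at 50% or more, so repeats did not move with GC content in one direction.

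**Figure D5:**
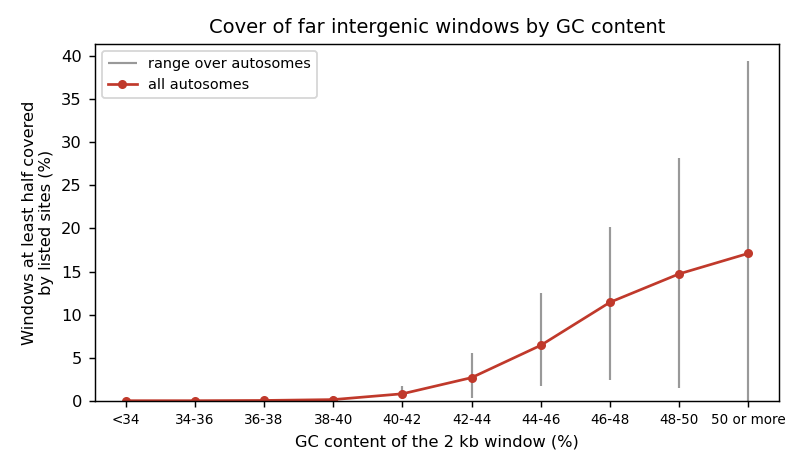
Share of far intergenic windows of 2 kb with listed sites over at least 50% of their length, in % (y axis) by the GC content of the window in % (x axis). Points are all autosomes together and vertical lines the range over the 19 autosomes; the share rose from 0% under 34% GC to 17.1% at 50% or more.

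Compared with sites of the same widths elsewhere, the members had the lowest median GC content of the 4 classes. It was 47.2% for intergenic sites nearer to genes, 47.7% for sites inside genes and 50.1% for promoter sites. The flanks of the members were also the lowest, at 44.2%, against 45.6%, 45.9% and 45.3% for these classes in the same order. The medians of sites and flanks lay farther apart for the members than for nearer intergenic sites and sites inside genes. They lay closer than for promoter sites. The comparisons between classes do not take the flanks into account. The members were lower than promoter sites by a median of -3.20 points (lower on 19 of 19 autosomes, exact test, adjusted p = 2.29e-05) and lower than sites inside genes by -0.915 points (18 of 19, adjusted p = 0.000153). The difference from intergenic sites nearer to genes was -0.280 points (15 of 19, exact test, adjusted p = 0.0288). It did not pass with a distance limit of 100 kb (-1.07 points, adjusted p = 0.0763) or with protein-coding genes alone as the annotation (-0.0616 points, adjusted p = 1) in the same exact test. Each of these p-values is from the exact two-sided sign test over autosomes, adjusted over 6 comparisons.

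CpG-rich windows, defined as 500 bp with at least 50% GC and an observed/expected CpG ratio of at least 0.6, were found in 42 members or 2.36% (1.75 to 3.17%). The share was 3.08% (2.79 to 3.40%) for intergenic sites nearer to genes, 4.49% (4.14 to 4.88%) for sites inside genes and 34.5% (32.9 to 36.1%) for promoter sites. The intervals of the members and of the other intergenic sites overlapped. A typical member thus had no CpG-rich core of this kind. The site around the printed Tenm3 window (chromosome 8, 48220089 to 48221153) had 33.8 CpGs per kb and lay 79478 bp from this gene, which encodes a teneurin, a transmembrane protein of neurons. Over all members the median was 10.8 CpGs per kb (10.6 to 11.1).

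Short motifs were counted on both strands as a description. CG occurred 11.5 times per kb in the members and 5.76 times per kb in far intergenic windows without a site, a ratio of 2.00. It occurred 11.5 times per kb in intergenic sites nearer to genes, 12.9 in sites inside genes and 22.2 in promoter sites. GAGAG, the core of the GAGA sequence tied to Polycomb response elements in Drosophila, occurred 5.41 times per kb in the members against 3.94, a ratio of 1.37. It occurred 5.54 times per kb in intergenic sites nearer to genes, 5.25 in sites inside genes and 5.18 in promoter sites, so this rate was not particular to the members. The AP-1 motif TGANTCA was found 0.286 times per kb against 0.326, a ratio of 0.878. The E-box CANNTG had a ratio of 1.15 and the TEAD motif GGAATG 1.04. CA repeated at least 10 times was rarer in the members, at 0.0722 against 0.0988 per kb. GA repeated at least 10 times had similar rates, 0.0436 against 0.0476 per kb, from only 151 matches in the members. In intergenic sites nearer to genes it had 0.0492 per kb. The windows differ from the members in GC content and width, and repeats of GA also contain GAGAG. As nearly every region holds a CG and a GAGAG (100% and 99.0% of the members, 99.9% and 98.4% of the windows), the rates rather than the shares carry the difference.

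The genes around far intergenic sites more often carried the mark at a promoter. The members had 499 different nearest protein-coding genes, measured to the transcript start. Of these, 269 (53.9%, 49.5 to 58.2%) had a listed site within 1000 bp of a transcript start, compared with 31.3% of the 20807 autosomal protein-coding genes. Among genes that are nearest to far intergenic windows but to no member, it was 660 of 1861 (35.5%, 33.3 to 37.7%). By autosome, the share was higher for the nearest genes of the members on 18 of 19, with a median difference of 14.1 points and a range of -12.1 to 46.5 (exact two-sided sign test, p = 7.63e-05, a test chosen after the data had been seen). Counted over members rather than genes, 49.6% (47.3 to 52.0%) had a nearest gene with a promoter site, against 39.8% of far intergenic windows. This difference is smaller than that over genes. Of all genes nearest to any far intergenic window, 39.4% had a promoter site. With sites up to 3 kb from a start counted, the shares were 66.7% for the nearest genes and 42.0% for all genes. Of the 478 stretches with members, 79.9% (76.1 to 83.3%) had a neighbouring protein-coding gene with a promoter site, and of the stretches without members 60.3% (58.5 to 62.0%).

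The 20 genes nearest to most members accounted for 339 of them, and 195 of the 499 genes were nearest to a single one. Mphosph6 led with 26 members at 52183 to 238689 bp. Sall1, a zinc finger transcription factor of kidney and limb development, followed with 25 at 82950 to 490350 bp, and Hs3st3a1, a heparan sulfate sulfotransferase, with 21 at 55798 to 144481 bp. Mtx2 had 19. Mki67, the marker of proliferating cells, and Sox2, a transcription factor of pluripotent and neural cells, had 18 each, but at 288361 to 404983 bp and 346400 to 504588 bp, and Sox2 had a site at a promoter. Such long distances are possible because non-coding genes also bound the stretches.

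Further genes among the 20 were Rragc, a GTPase of mTORC1 signalling, and Spred2 with 17 members each, and Meis1 and Mex3c, an RNA-binding ubiquitin ligase, with 16 each. Cryba4 (a lens crystallin), Gpat3 (an enzyme of glycerolipid synthesis), Kif2a (a kinesin), Tmem182, Tshz3 (a zinc finger homeobox factor) and Zfp507 were each nearest to 15. Adamts16 (a metalloprotease), Cdh13, Ctbp2 (a corepressor) and Fstl4 were each nearest to 14. Rybp and Sec16b, also with 14 and without a promoter site, fell outside the 20 by alphabetical order alone. Of the 20, 6, namely Sall1, Sox2, Meis1, Cryba4, Adamts16 and Fstl4, had a site at a promoter, beside 31.3% of all autosomal protein-coding genes. For some of the others, a protein-coding gene at the other end of a stretch with members had one. These included Rragc opposite 3100002H09Rik, Gpat3 opposite Nkx6-1, Tmem182 opposite Pou3f3, Spred2 opposite Meis1, Mex3c opposite Dcc, Ctbp2 opposite Tex36 and Tshz3 opposite Zfp536. In other stretches with many members neither neighbouring protein-coding gene had a promoter site. Among them were Mphosph6 to Cdh13, Mtx2 to Hnrnpa3, Mki67 to Mgmt, Kif2a to Ndufaf2 and Zfp507 to Tshz3.

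Members of developmental transcription factor and Wnt families, a list chosen with earlier results of these data known, were the nearest gene for 133 members (7.46%, 6.33 to 8.77%), compared with 2.49% of far intergenic windows. The 133 members were near 28 genes, of which 23 had a site at a promoter. Over the whole list a promoter site was found for 166 of 225 autosomal genes (73.8%). After Sox2 with 18 and Meis1 with 16 came the LIM homeobox gene Lhx1 with 11 at 93267 to 140587 bp and the T-box gene Tbx3 with 11 at 62415 to 259376 bp. The forkhead gene Foxb1 had 9, the Iroquois genes Irx1 and Irx6 had 8 each, the kidney regulator Six2 had 7, and the endoderm and pancreas regulators Foxa2 and Nkx6-1 had 6 each. All of these except Tbx3 had a promoter site. A single member was found for 9 of the 28 genes. Most of the members, then, were not nearest to a gene of these families.

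Genes of adhesion and axon guidance, which often border long gene-poor regions, were the nearest gene for 10.8% of far intergenic windows but for 41 members (2.30%, 1.70 to 3.10%). These members were near 12 genes, of which 10 had a promoter site. Cdh13 was nearest to 14, the protocadherin gene Pcdh1 to 9 and the cadherin gene Cdh6 to 5. Over the whole list, 107 of 182 genes (58.8%) had a promoter site. Receptor families of the sense organs were nearest to 11 members (0.617%, 0.345 to 1.10%) and 0.208% of windows, of which 8 members were near the taste receptor gene Tas2r119, and 294 of 1446 genes of that list (20.3%) had a promoter site.

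Of 20 fibroblast identity genes, Twist2, a basic helix-loop-helix factor of mesenchyme, was nearest to 2 members and the others to none, which is 0.112% of the members (0.0308 to 0.408%) against 0.125% of far intergenic windows, and 5 of the 20 had a site at a promoter. The list of genes for keratinocytes, muscle and blood was nearest to 0 of 1783 members, which allows a share of up to 0.168% (3 counts), against 0.0343% of windows, and 5 of its 9 autosomal genes had a promoter site. These lists bear on the cell type only through the mark, as no expression was measured in these libraries. Nearest genes are a matter of position, and which gene, if any, a far intergenic site acts on was not measured.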

How the data were processed

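The authors used Trim Galore for trimming and BWA for alignment to mm10 (GRCm38.p6), removed unusable alignments with SAMtools after ENCODE, merged replicates with Picard, brought libraries to the lowest coverage and called broad peaks with MACS. Versions, call thresholds and the rule for combining peaks over samples are not given in the sources used here. The deposited list holds the start and end of each site in bp and no count, score or signal, so depth is unknown. Starts were read as counted from 0 and are printed from 1. No column of values per library was left unassigned (0).

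Sites were placed on the GRCm38.p6 sequence, with its repeat masking, and on genes of GENCODE M21 (the study used a later release), using Python 3.11.15, numpy 2.4.6, scipy 1.17.1 and pandas 2.3.3. Sequence measures and the cover of the surroundings were compared as medians per autosome with the exact two-sided sign test and Benjamini-Hochberg adjustment, with a threshold of 0.05. Shares have 95% Wilson intervals and medians 95% order-statistic intervals. The functions were tested on simulated data. Named sites were the 3 widest, farthest, most CpG-rich and most isolated and those at the limits of the definition, named stretches the 5 with most members, and named genes the 20 nearest to most members and list genes nearest to at least 5. 1 of the most CpG-rich sites and the gene near a site at the limits are not reported here. The sites, gene lists and comparisons were chosen with earlier results of these data known. With the list used here, no comparison of treated and control cells was possible.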

Additional observations from a re-analysis of the deposited data

Results flagged for a closer look

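Chromosome X, which the comparisons above leave out, held 102 sites that met the same limits on width and distance, more than the 3 sites still compatible with a count of 0. They amount to 3.09 sites per Mb of far intergenic sequence, within the range of the autosomes. Their median width was 1604 bp and their median GC content 48.7%, against 46.6% in their flanks. The stretch between Efnb1, which encodes an ephrin ligand, and Pja1, a ubiquitin ligase gene, held 36 of them, more than any autosomal stretch, and the neighbouring stretch between Pja1 and Tmem28 held 23.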

How the results depend on the processing

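No paired analysis was possible because no value is given for single libraries, so no replicate could be left out either. Depth per site is not given, and a position without a site may carry the mark below the limit of detection. Of 42 values of the exact sign test under other settings, 35 kept their direction and their side of the threshold, 5 passed it newly, 2 no longer passed it and none turned its direction. With a distance limit of 100 kb there were 364 sites at 2.19 per Mb, the share near developmental families was 9.62% and GC content against nearer intergenic sites differed by -1.07 points (exact test, adjusted p = 0.0763). The cover of the surroundings then differed by -10.9 points from nearer intergenic sites and by 0.826 points from promoter sites, neither past the threshold (exact test, adjusted p = 0.0763 and 0.648). With protein-coding genes alone as the annotation there were 6188 sites, that difference was -0.0616 points (exact test, adjusted p = 1), and the cover of the surroundings differed by -4.40 points from nearer intergenic sites and by 10.5 points from promoter sites, both now past the threshold. With a minimum width of 2 kb there were 628 sites at 1.69 per Mb, 4.14% had a CpG-rich window, the median gap was 339 bp and the cover differed by 8.65 points from promoter sites, past the threshold, and by -4.23 points from nearer intergenic sites, lower on 10 of 19 autosomes (exact test, adjusted p = 1). With sites closer than 1 kb joined first, the gap was 2123 bp, the share near developmental families 5.70% and the cover differed by -6.52 points from nearer intergenic sites, past the threshold, and by 1.83 points from promoter sites (exact test, adjusted p = 0.0636). Surroundings of 100 kb gave 6.90 points against promoter sites, past the threshold, and -2.59 points against nearer intergenic sites (exact test, adjusted p = 0.648), and a promoter window of 3 kb gave 66.7% of nearest genes. The cause of these shifts was not tested, apart from the changes in number and gap that the limits themselves bring. Chosen after the data had been seen were unmasked bases, flanks or windows free of sites, and the share near developmental families without the 5 leading stretches, which was 7.69%.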
